A study of Mus musculus with 6 samples.

Results

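Genes of iron uptake, storage, export and hepcidin control were compared between fasted livers with and without Acss2. The set holds 10 genes picked by symbol (Hamp, Hfe, Hfe2, Tfr2, Tfrc, Slc40a1, Fth1, Ftl1, Trf and Scara5), and all 10 were found among the 12366 genes of the deposited table. The Acss2-KO group was 3 liver libraries from mice with the genotype Acss2-/-, and the WT group was 3 liver libraries from wild type mice. Both groups were male C57BL/6 mice on chow, aged 22 weeks and fasted for 48 h. Acss2 encodes an enzyme that makes acetyl-CoA from acetate. The labels do not say which animal gave which library. Each p-value therefore reflects the spread among the libraries as sequenced, some of which may be technical.

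The liver is the main source of hepcidin, the hormone made from Hamp, which binds the iron exporter ferroportin and has it degraded. Hepatocytes set Hamp transcription through a BMP-SMAD pathway in which hemojuvelin is a coreceptor and HFE and transferrin receptor 2 act as sensors of circulating transferrin iron, and through an IL-6-STAT3 pathway. Inside cells, iron regulatory proteins bind iron responsive elements, short hairpins in the untranslated regions of mRNAs: in the 5' UTR of ferritin and ferroportin mRNAs they block translation, and in the 3' UTR of transferrin receptor 1 mRNA they protect the transcript from decay.

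The hairpins of 4 of the genes, which are on a textbook list of such transcripts, are shown. Matches were read out by gene only for that list, so the other iron genes are not covered. Sequences are from the longest coding transcript of each gene in GENCODE M1, 5' to 3', 29 bases each, with the first 5 loop bases in capitals. The search asked for an unpaired C, 5 stem bases, the loop CAGTG followed by A, C or T, and 5 bases pairing with the stem. Of 22754 genes searched, 99 (0.435%) hold this pattern in a UTR, and a match is a description of the letters only. Tfrc holds 4 matches in its 3' UTR, of which the first is shown.
Fth1 (chromosome 19, 5' UTR, bases 30 to 58): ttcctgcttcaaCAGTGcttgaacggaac
Ftl1 (chromosome 7, 5' UTR, bases 78 to 106): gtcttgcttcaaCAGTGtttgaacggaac
Slc40a1 (chromosome 1, 5' UTR, bases 102 to 130): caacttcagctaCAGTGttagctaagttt
Tfrc (chromosome 16, 3' UTR, bases 3315 to 3343): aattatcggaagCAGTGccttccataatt

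The Hamp promoter is shown because it holds, 6 bases apart, the letters of the BMP-responsive element (GGCGCC) and of a STAT site (TTCNNNGAA). The stretch lies at chr7:30944098-30944158 on the minus strand (GRCm38.p6, RefSeq), from -129 to -69 relative to the start of the gene, with both motifs in capitals.
Hamp: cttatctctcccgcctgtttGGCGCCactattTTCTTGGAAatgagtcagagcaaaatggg
Each motif reads the same on both strands. Among 32851 RefSeq promoter windows around gene starts, 11.9% hold GGCGCC, 8.3% hold TTCNNNGAA and 0.645% hold both. Promoter windows were given for 6 of the 10 genes. Of these, the Hamp window is the one that holds TTCNNNGAA, and GGCGCC is also in 1 of the 2 Tfrc windows.

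Estimated depth was 21.8 to 28.6 M reads in Acss2-KO and 23.3 to 30.8 M reads in WT. Values are CPM, in which each library's reads are scaled to the same total. Acss2 was at 1.37, 3.56 and 2.35 CPM in Acss2-KO against 74.0, 81 and 73.5 CPM in WT, which matches the labels of the 6 libraries. The hepatocyte genes were abundant, with Alb between 74760 and 81810 CPM in Acss2-KO and between 62430 and 81250 CPM in WT. Among the 9355 genes averaging 5 CPM or more, 13.4% were called higher and 23.1% lower in Acss2-KO (limma on log2(CPM + 1), adjusted p under 0.05). Over all tested genes the median log2 fold change was -0.12, and 0.01 with median-of-ratios scaling. Of all calls, 36.7% were higher, against 51.3% with median-of-ratios scaling, 51.5% with trimmed-mean and 52.8% with quantile scaling.

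Of the 10 iron genes, all of them tested, 3 were higher (Scara5, Hamp and Hfe2), 3 were lower (Slc40a1, Trf and Hfe) and 4 did not pass the test (Tfrc, Tfr2, Fth1 and Ftl1), against background shares of 13.4% called higher and 23.1% called lower. The libraries of the genotypes did not overlap for 7 of the 10, against 52.9% of all tested genes. The median log2 fold change over the 10 was -0.02. When Acss2-KO replicate 1 and WT replicate 2 were left out together, 1 was called higher (Scara5) and 2 lower (Slc40a1 and Trf).

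**Figure D1:**
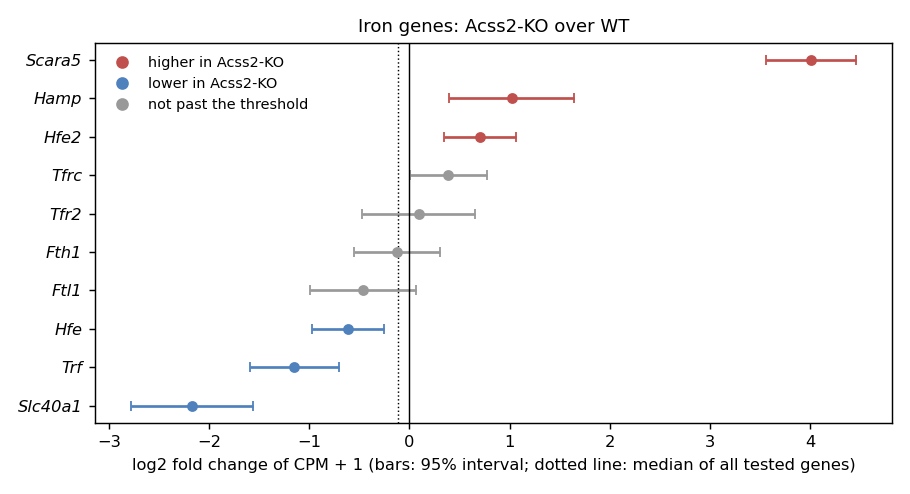
Log2 fold change of CPM + 1, Acss2-KO over WT, for the 10 iron genes, with 95% intervals as bars and the median of all tested genes (-0.12) as a dotted line. Scara5 (4.01) and Slc40a1 (-2.17) lie at the ends, and the intervals of Tfr2, Fth1 and Ftl1 include 0.

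Hepcidin mRNA was more abundant in Acss2-KO livers. Hamp (ENSMUSG00000050440, chromosome 7, 30942368 to 30944032) was at 2062, 1090 and 1872 CPM in Acss2-KO replicates 1, 2 and 3, against 820, 671 and 910 CPM in WT. Acss2-KO replicate 2 was the nearest to WT and still above every WT library. The means were 1675 ± 515 CPM in Acss2-KO and 800 ± 121 CPM in WT (SD, n = 3 each), a 2.03-fold higher level on the log2(CPM + 1) scale (log2 fold change 1.02, SE 0.28, limma adjusted p = 0.020). The call was lost without Acss2-KO replicate 1 (adjusted p = 0.058), Acss2-KO replicate 3 (0.087), WT replicate 1 (0.054) or WT replicate 2 (0.075), and adjusted p ran from 0.0027 to 0.14 over 20 alternatives. In the authors' deposited table the log2 fold change of Hamp is 1.21 with an adjusted p of 0.0051. Reads of Hamp could be shared with its near copy Hamp2, which was too low to test: it was listed at 0 in Acss2-KO replicates 1 and 3 and at 1.25 CPM in Acss2-KO replicate 2, against 2.01, 1.5 and 1.55 CPM in WT.

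Of the genes that feed into hepcidin control at the membrane, the coreceptor gene Hfe2 was higher, the sensor gene Hfe was lower and the sensor gene Tfr2 did not pass. Hfe2 (ENSMUSG00000038403, chromosome 3, 96525172 to 96529210) encodes hemojuvelin, the BMP coreceptor that hepatocytes need for hepcidin expression. It was at 137, 153 and 142 CPM in Acss2-KO against 88.6, 86.2 and 88.6 CPM in WT. The WT libraries lay within 3 CPM of each other and all 3 Acss2-KO libraries were well above them (1.63-fold, log2 fold change 0.71, SE 0.16, limma adjusted p = 0.0099). Hfe (ENSMUSG00000006611, chromosome 13, 23702034 to 23710854), an MHC class I-like protein that binds transferrin receptors, was at 31.8, 37.8 and 33.1 CPM in Acss2-KO against 48.8, 52.0 and 58.1 CPM in WT. Its groups did not overlap and the level in Acss2-KO was 0.653 of that in WT (log2 fold change -0.62, SE 0.16, limma adjusted p = 0.018).

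Hfe2 lost its call when Acss2-KO replicate 1 and WT replicate 2 were left out together (adjusted p = 0.063, range over 20 alternatives 0.0049 to 0.063). Hfe lost its call without Acss2-KO replicate 1 (0.052), Acss2-KO replicate 3 (0.076) or WT replicate 2 (0.058), with a range of 0.014 to 0.13. In the authors' deposited table neither passes 0.05, with adjusted p of 0.058 for Hfe2 and 0.36 for Hfe. Tfr2 (ENSMUSG00000029716, chromosome 5, 137569840 to 137587481), the hepatocyte receptor that senses iron-loaded transferrin, was at 534, 410 and 416 CPM in Acss2-KO against 519, 474 and 304 CPM in WT. The groups overlapped, and the log2 fold change was 0.09 (95% interval -0.47 to 0.66, limma adjusted p = 0.79). Its sign turned without Acss2-KO replicate 1 (-0.03) or WT replicate 3 (-0.14).

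**Figure D2:**
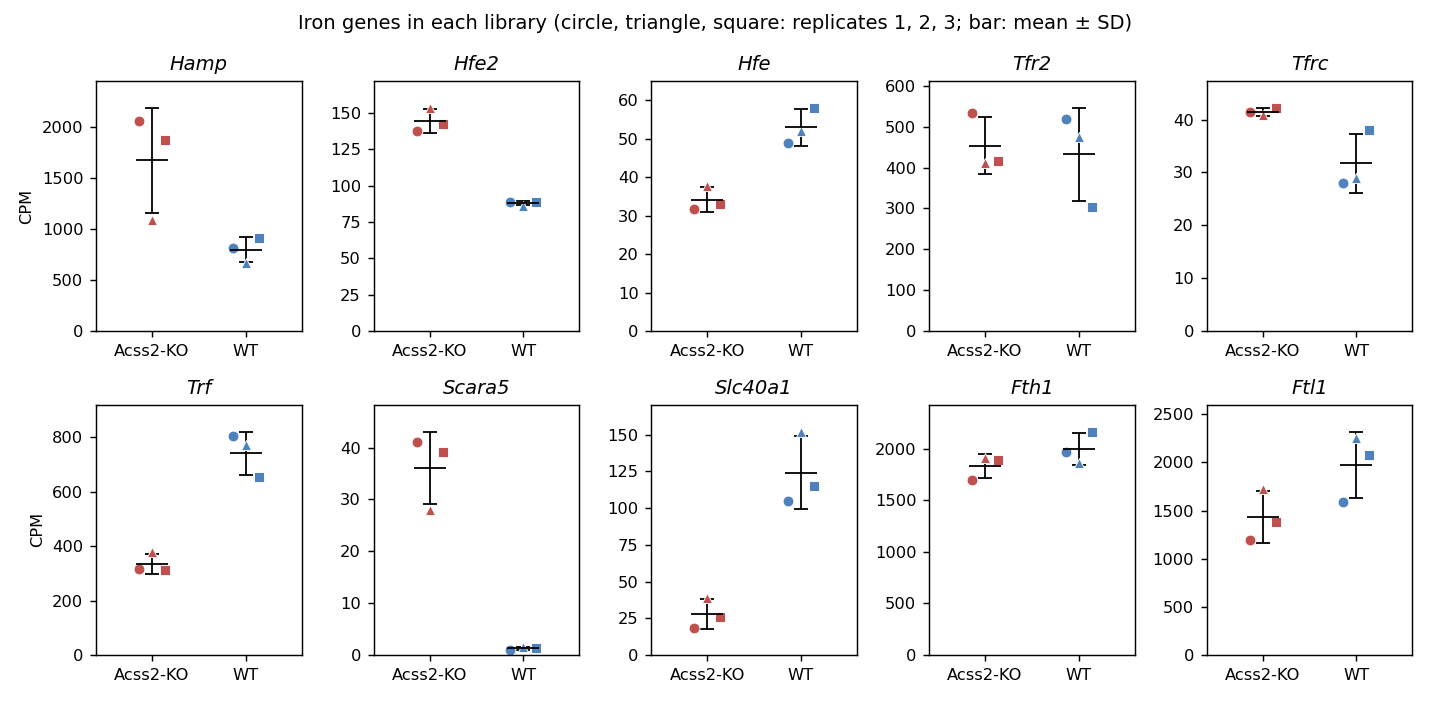
CPM of each iron gene in every library, with Acss2-KO left of WT in each panel, points for replicates 1 to 3 and bars for mean ± SD (n = 3). A value listed at 0 (Scara5 in WT replicate 1) is drawn at 1 CPM. Hamp, Hfe2, Tfrc and Scara5 were higher in all 3 Acss2-KO libraries than in any WT library, and Slc40a1, Trf and Hfe were lower.

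Of the genes of iron uptake, the ferritin receptor gene Scara5 differed most. Scara5 (ENSMUSG00000022032, chromosome 14, 65666403 to 65764826) encodes a scavenger receptor that takes up ferritin. It was at 41.1, 28.1 and 39.1 CPM in Acss2-KO, against 1.43 and 1.41 CPM in WT replicates 2 and 3 and a listed 0 (below about 1 CPM) in WT replicate 1. Every Acss2-KO library was far above every WT library, with means of 36.1 ± 7.02 CPM in Acss2-KO and 1.28 ± 0.245 CPM in WT when the listed 0 is set to 1 CPM (SD, n = 3 each). The log2 fold change was 4.01 (SE 0.20, limma adjusted p = 2.6e-05) and is set partly by the pseudocount: it was 2.69 with a pseudocount of 5 and 4.81 with none. The call held in each of the 19 alternatives in which it was tested (adjusted p between 2e-12 and 0.0036). It could not be tested at a minimum of 20 CPM because its mean was 18.7 CPM.

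Transferrin mRNA was lower in Acss2-KO livers. Trf (ENSMUSG00000032554, chromosome 9, 103204001 to 103230444) encodes transferrin, the plasma iron carrier that hepatocytes secrete. It was at 315, 377 and 311 CPM in Acss2-KO against 803, 771 and 653 CPM in WT. The highest Acss2-KO library was well under the lowest WT library, and the level was 0.451 of that in WT (log2 fold change -1.15, SE 0.19, limma adjusted p = 0.0035). The call held in all 20 alternatives (adjusted p between 0.0025 and 0.025). Of 6 hepatocyte markers, the plasma protein genes Ttr and Serpina1c were also lower, the enzyme gene Tat was higher (a call lost without Acss2-KO replicate 3 or WT replicate 2) and the plasma protein genes Alb, Apoa1 and Fgb did not pass, with summed levels of 95200 to 108000 CPM in Acss2-KO and 80600 to 104000 CPM in WT.

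Transferrin receptor 1, which takes iron-loaded transferrin into cells, was at the edge of the test. Tfrc (ENSMUSG00000022797, chromosome 16, 32608920 to 32632794) was at 41.4, 40.8 and 42.2 CPM in Acss2-KO against 28.1, 29.0 and 38.0 CPM in WT. The Acss2-KO libraries lay close together and above all WT libraries, of which WT replicate 3 was the nearest. The log2 fold change of 0.39 (95% interval 0.01 to 0.77) did not pass (limma adjusted p = 0.10). It passed without WT replicate 3 (0.027) and with median-of-ratios (0.046) or trimmed-mean scaling (0.045), in a range of 0.027 to 0.41.

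Ferroportin mRNA had the largest fall of the 10 genes. Slc40a1 (ENSMUSG00000025993, chromosome 1, 45908068 to 45926523) encodes the iron exporter, which is made in macrophages as well as in hepatocytes. It was at 18.5, 38.6 and 25.8 CPM in Acss2-KO against 105, 152 and 115 CPM in WT. The groups were far apart, with Acss2-KO replicate 2 the nearest to WT as it was for Hamp. The means were 27.6 ± 10.2 CPM in Acss2-KO and 124 ± 24.9 CPM in WT (SD, n = 3 each), a level 0.222 of that in WT (log2 fold change -2.17, SE 0.27, limma adjusted p = 0.0010). The call held in all 20 alternatives, with log2 fold changes between -2.43 and -1.77 (adjusted p between 2.4e-05 and 0.014). The authors' deposited table gives log2 fold changes of -2.01 for Slc40a1, -0.99 for Trf and 5.04 for Scara5, with adjusted p of 1.2e-06, 0.026 and 7.1e-28.

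Summed macrophage and red cell marker levels were lower in every Acss2-KO library than in any WT library, as Slc40a1 was. Of 12 tested Kupffer cell and macrophage markers 4 were lower (Clec4f, Cd5l, Adgre1 and Ptprc) and 8 did not pass, against 23.1% lower among all tested genes, and the 13 markers in the table summed to 155 to 229 CPM in Acss2-KO against 252 to 741 CPM in WT. WT replicate 2 had the highest macrophage sum and the highest Slc40a1 value. Without it the Slc40a1 log2 fold change was -2.01 (limma adjusted p = 0.0031) and 0 macrophage markers were called lower by limma, with 3 lower at an unadjusted p under 0.05. Lower macrophage calls also numbered 2 without Acss2-KO replicate 1 or WT replicate 3, and 1 without Acss2-KO replicate 3, and 2 with median-of-ratios, trimmed-mean or quantile scaling. Cd163, another marker of the list, had a log2 fold change of 0.27 (adjusted p = 0.55). All 5 red cell markers in the table were lower, with sums of 41.2 to 67.0 CPM in Acss2-KO and 162 to 280 CPM in WT. None of these markers was listed at 0 in all 6 libraries. The part of macrophages and red cells in the Slc40a1 difference was not tested, and in whole liver fewer cells of a type and less RNA per cell cannot be told apart.

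**Figure D3:**
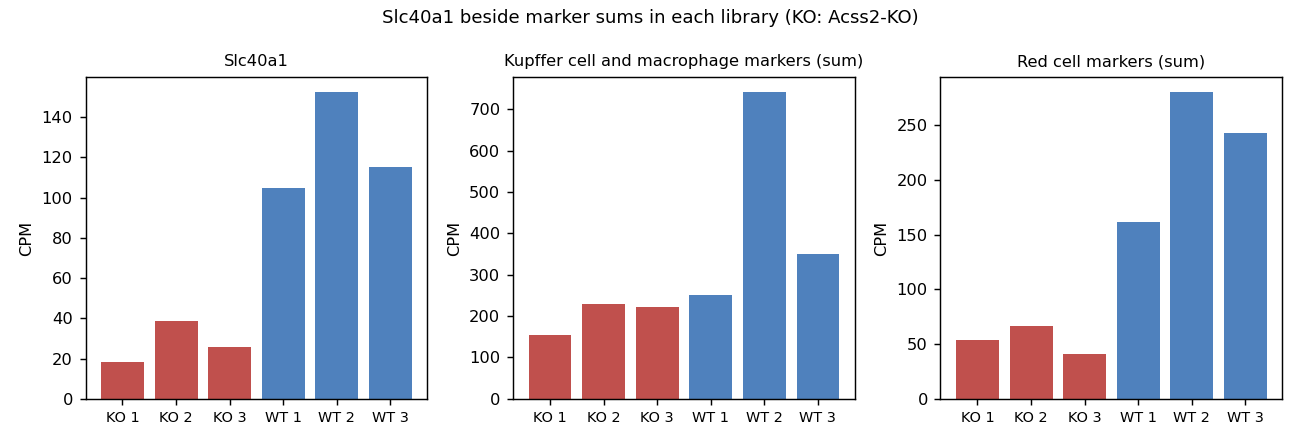
CPM of Slc40a1 (left), summed CPM of 13 Kupffer cell and macrophage markers (middle) and of 5 red cell markers (right) in each library, as bars from 0. All 3 Acss2-KO libraries lie below all 3 WT libraries in each panel, and WT replicate 2 is the highest bar in each.

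The ferritin genes, which encode the shell that stores iron, did not pass the test. Fth1 (ENSMUSG00000024661, chromosome 19, 9982703 to 9985092), the heavy chain with the ferroxidase site, was at 1698, 1911 and 1885 CPM in Acss2-KO against 1965, 1859 and 2165 CPM in WT. The groups overlapped, and the log2 fold change was -0.12 (95% interval -0.55 to 0.31, limma adjusted p = 0.63), near the -0.12 of the median tested gene. Its sign turned with median-of-ratios and with trimmed-mean scaling (0.01 each). Ftl1 (ENSMUSG00000050708, chromosome 7, 45457945 to 45459886), the light chain, was at 1193, 1722 and 1380 CPM in Acss2-KO against 1585, 2257 and 2077 CPM in WT. Acss2-KO replicate 2 was above WT replicate 1, so the groups overlapped (log2 fold change -0.46, 95% interval -0.99 to 0.06, limma adjusted p = 0.15). Ferritin genes have processed copies in the genome, so their reads may be shared.

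Genes on the textbook list of transcripts with an iron responsive element did not move as a block. Of 9 listed genes tested, 1 was higher, 2 were lower and 6 did not pass, near the 13.4% and 23.1% of all tested genes. Their median log2 fold change was -0.12. The hairpin search found its pattern in a UTR of 6 of the 9 listed genes. Slc40a1, Fth1 and Ftl1 all hold the hairpin in the 5' UTR shown above, with log2 fold changes of -2.17, -0.12 and -0.46. In the 5' UTR the hairpin acts on translation, so mRNA levels cannot show whether it was bound. The higher call was lost without Acss2-KO replicate 3. Higher calls in this list numbered 2 without Acss2-KO replicate 2 or WT replicate 3, and 3 with median-of-ratios or trimmed-mean scaling. Alas2, which starts heme synthesis in red cell precursors, was at 7.01, 10.8 and 5.28 CPM in Acss2-KO against 48.5, 60.1 and 42.5 CPM in WT (log2 fold change -2.60, SE 0.25, limma adjusted p = 0.00039). It is also a red cell marker. The genes of the proteins that bind these hairpins did not pass: Aco1 averaged 156 ± 18.2 CPM in Acss2-KO and 243 ± 64.8 CPM in WT (limma adjusted p = 0.075, and 0.018 without WT replicate 3, in a range of 0.018 to 0.39), and Ireb2 averaged 72.5 ± 17.2 CPM in Acss2-KO and 91.0 ± 14.5 CPM in WT (0.24). SDs are over 3 libraries each.

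Per kilobase of the longest coding transcript, the scale on which levels of different genes were compared, Hamp was the most abundant of the 10 in Acss2-KO at 4272 ± 1314 CPM per kb. Next came Fth1 at 2115 ± 134 and Ftl1 at 1479 ± 277 CPM per kb, and the Acss2-KO ranges of these 3 genes did not overlap. Tfr2 (155 ± 23.8) and Trf (130 ± 14.5) were next with overlapping ranges, followed by Hfe2 (71.3 ± 4.09) and Hfe (13.9 ± 1.28 CPM per kb). Scara5 (9.51 ± 1.85), Tfrc (8.48 ± 0.147) and Slc40a1 (8.18 ± 3.01 CPM per kb) could not be ordered beyond their spread. In WT, Fth1 (2305 ± 179), Hamp (2042 ± 308) and Ftl1 (2038 ± 359 CPM per kb) overlapped. They were followed by Trf (289 ± 30.9), Tfr2 (148 ± 38.7), then Hfe2 (43.5 ± 0.694) and Slc40a1 (36.7 ± 7.37), which overlapped, and then Hfe (21.6 ± 1.91), Tfrc (6.49 ± 1.13) and Scara5 (0.338 ± 0.0646 CPM per kb). Slc40a1 was thus above Hfe in every WT library and below it in every Acss2-KO library.

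With all libraries, genes that control hepcidin were called higher more often than lower, an order that turned when some single libraries were left out. Of 34 tested genes of the BMP-SMAD, IL-6-STAT3 and related pathways, 8 were higher, 3 were lower and 23 did not pass, beside background shares of 13.4% and 23.1%. Their median log2 fold change was 0.12, against -0.12 for all tested genes. The list holds both activators and suppressors of hepcidin, so these counts and this median give no direction for hepcidin control. The higher calls rested on few libraries: they numbered 3 without Acss2-KO replicate 1, 1 without Acss2-KO replicate 3 or WT replicate 1, and 2 without WT replicate 3. The lower calls numbered 4 without Acss2-KO replicate 1, 3 without Acss2-KO replicate 3 or WT replicate 1, and 6 without WT replicate 3. Lower calls thus outnumbered higher ones in each of these fits.

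A suppressor of hepcidin in this list was lower. Genes named from here to the plot of hepcidin control, apart from Egfr, Tmprss6, Cebpa, Met, Hnf4a and Creb3l3, were chosen after their values were seen. Tmprss6, the membrane protease that cleaves hemojuvelin, was at 184, 236 and 209 CPM in Acss2-KO against 491, 495 and 402 CPM in WT. The groups did not overlap, and the level in Acss2-KO was 0.454 of that in WT (log2 fold change -1.14, SE 0.20, limma adjusted p = 0.0037). The call held in all 20 alternatives (adjusted p between 0.0026 and 0.023). Furin, the protease that matures prohepcidin and also cleaves hemojuvelin, was at 605, 434 and 484 CPM in Acss2-KO against 347, 331 and 237 CPM in WT (log2 fold change 0.74, SE 0.23, limma adjusted p = 0.034). Furin lost its call without Acss2-KO replicate 1 (0.092) or 3 (0.096) or without WT replicate 1 (0.057), 2 (0.067) or 3 (0.066), with a range over 20 alternatives of 0.016 to 0.13. Fgl1 and Gdf15, also on this list, did not pass. Fgl1 was at 1024, 404.5 and 643.6 CPM in Acss2-KO against 222.9, 254.2 and 464.6 CPM in WT, with overlapping groups. Its log2 fold change was 1.11 (SE 0.38, limma adjusted p = 0.051). Gdf15 was lower in every Acss2-KO library than in any WT library (-2.32, SE 0.73, limma adjusted p = 0.056). In the authors' deposited table both pass, with adjusted p of 0.0029 for Fgl1 and 2.3e-06 for Gdf15. Tmprss6 passes there too (0.027), and Furin does not (0.051).

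The genes of the BMP ligands Bmp6 and Bmp2, made mainly by liver endothelial cells, were called higher in Acss2-KO. Bmp6, the ligand that follows liver iron, was at 8.46, 7.46 and 10.1 CPM in Acss2-KO against 4.20, 5.94 and 3.43 CPM in WT (log2 fold change 0.83, SE 0.22, limma adjusted p = 0.019). Bmp6 averaged 8.68 CPM in Acss2-KO and 4.52 CPM in WT, so it reached the 5 CPM filter only through Acss2-KO. Its log2 fold change ran from 0.53 to 1.05 over 19 alternatives. Bmp2 was at 36.2, 28.2 and 35.3 CPM in Acss2-KO against 20.1, 26.9 and 19.7 CPM in WT (log2 fold change 0.57, SE 0.19, adjusted p = 0.042). For both ligands every Acss2-KO library was above every WT library, by a narrow gap between Acss2-KO replicate 2 and WT replicate 2. Bmp6 lost its call without Acss2-KO replicate 3 (0.088) or WT replicate 1 (0.063) or 3 (0.059), in a range over 19 alternatives of 0.0063 to 0.088. Bmp2 lost its call without Acss2-KO replicate 1 (0.11) or 3 (0.14) or WT replicate 1 (0.14) or 3 (0.096), in a range over 20 of 0.017 to 0.14. Inhbb, which encodes the activin B subunit, was at 37.0, 9.06 and 29.9 CPM in Acss2-KO against 4.96, 8.52 and 4.11 CPM in WT (log2 fold change 1.78, SE 0.52, limma adjusted p = 0.036). Its call was lost on leaving out any library other than Acss2-KO replicate 2 (adjusted p between 0.068 and 0.12, and between 0.0004 and 0.17 over 19 alternatives). Of 9 sinusoidal endothelial markers, 1 was higher and 2 were lower, near the 13.4% and 23.1% of all tested genes, with sums of 356 to 461 CPM in Acss2-KO and 316 to 476 CPM in WT. Higher endothelial calls numbered 2 with median-of-ratios, upper-quartile or quantile scaling, 3 with trimmed-mean scaling and 2 without Acss2-KO replicate 2 or WT replicate 2.

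Downstream of the receptors, the signal transducer Smad1 was at 36.0, 16.8 and 26.4 CPM in Acss2-KO against 13.7, 14.4 and 10.9 CPM in WT (log2 fold change 0.91, SE 0.26, limma adjusted p = 0.026). Id1, a target gene of BMP signalling, was at 25.5, 27.5 and 43.7 CPM in Acss2-KO against 17.1, 23.1 and 16.4 CPM in WT (0.71, SE 0.23, adjusted p = 0.042). The groups did not overlap for either gene. Other targets did not pass: log2 fold changes were 0.07 for Smad6, -0.18 for Smad7 and -0.49 for Atoh8 (adjusted p = 0.84, 0.58 and 0.19), and the sign of Smad6 turned without Acss2-KO replicate 3 (-0.06) or WT replicate 3 (-0.15). Smad1 lost its call without Acss2-KO replicate 1 (0.068) or 3 (0.086) or WT replicate 1 (0.057) or 3 (0.099), in a range over 19 alternatives of 0.0026 to 0.099. Id1 lost its call without Acss2-KO replicate 3 (0.16) or WT replicate 1 (0.12) or 3 (0.13), and with neither the robust nor the trend option (0.051), in a range of 0.0081 to 0.16. Smad5, another transducer gene of this list, went the other way. It was at 23.75, 22.0 and 20.4 CPM in Acss2-KO against 32.0, 29.2 and 28.8 CPM in WT. Its log2 fold change of -0.43 did not pass (SE 0.15, limma adjusted p = 0.053). Smad9 and Smad4 did not pass either (0.77 and 0.34, limma adjusted p = 0.059 and 0.19).

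In the IL-6 branch, the transcription factor gene Stat3 was at 239, 161 and 184 CPM in Acss2-KO against 119, 132 and 89.9 CPM in WT (log2 fold change 0.77, SE 0.22, limma adjusted p = 0.027). Its feedback inhibitor Socs3 did not pass (0.18, SE 0.18, adjusted p = 0.45). Other genes of this branch did not pass either. Log2 fold changes were -0.08 for Il6ra, -0.12 for Il6st, 0.30 for Jak1 and -0.24 for Jak2 (limma adjusted p = 0.80, 0.71, 0.24 and 0.29). Il6 was not among the genes of the deposited table. Stat3 lost its call without Acss2-KO replicate 1 (0.075) or 3 (0.078) or WT replicate 1 (0.063) or 3 (0.066), in a range of 0.014 to 0.078. Growth factor receptors, whose ligands lower hepcidin, moved in both directions. Egfr was at 556, 474 and 340 CPM in Acss2-KO against 205, 156 and 127 CPM in WT (log2 fold change 1.48, SE 0.26, adjusted p = 0.0037). Met, the hepatocyte growth factor receptor, was at 29.6, 65.3 and 43.4 CPM in Acss2-KO against 120, 116 and 81.6 CPM in WT (-1.23, SE 0.29, adjusted p = 0.012). Cebpa, a hepatocyte transcription factor that activates Hamp, averaged 164 ± 25.9 CPM in Acss2-KO and 341 ± 59.8 CPM in WT (SD, n = 3 each; log2 fold change -1.04, SE 0.21, limma adjusted p = 0.0067). The abundant factor genes Hnf4a and Creb3l3 did not pass, with log2 fold changes of 0.34 and 0.18 (adjusted p = 0.20 and 0.48).

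**Figure D4:**
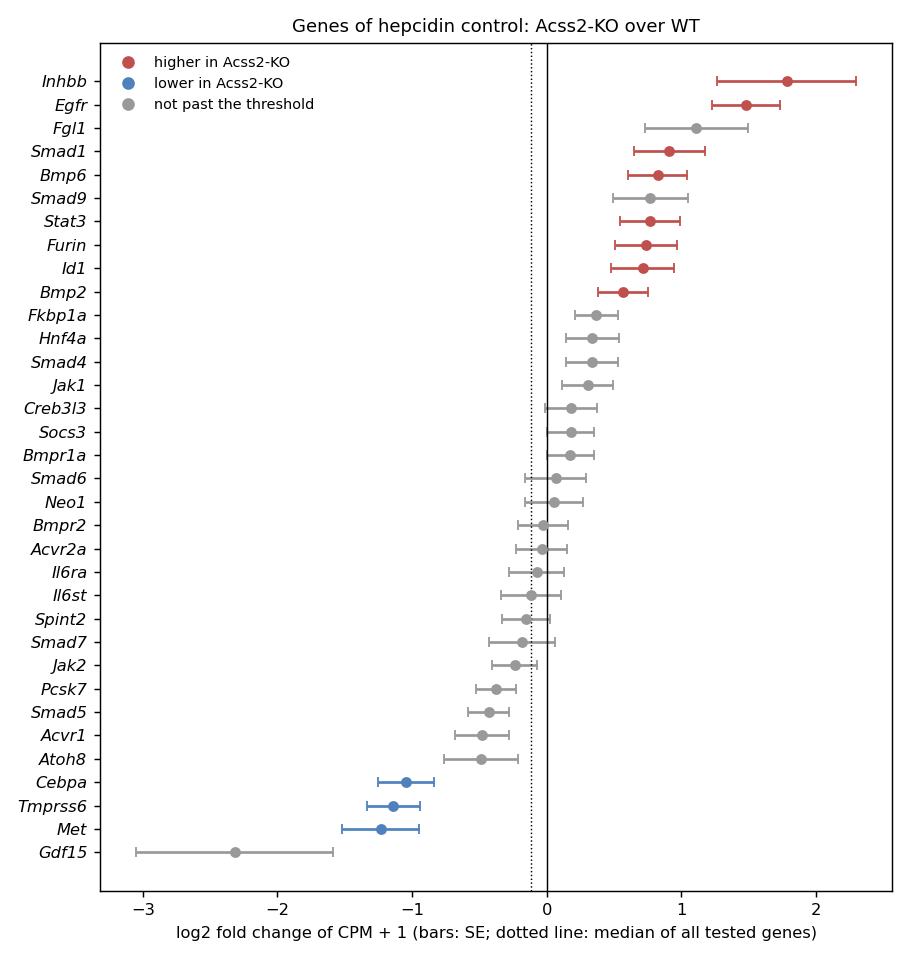
Log2 fold change of CPM + 1, Acss2-KO over WT, with SE bars, for the 34 tested genes of hepcidin control. The 8 genes called higher include Inhbb (1.78), Egfr (1.48) and Bmp6 (0.83), and the 3 called lower are Met (-1.23), Tmprss6 (-1.14) and Cebpa (-1.04).

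Most other genes of iron handling did not pass the test. Of 27 tested, 1 was higher, 5 were lower and 21 did not pass, both shares below the 13.4% higher and 23.1% lower of all tested genes, with a median log2 fold change of -0.25 beside -0.12 for all tested genes. Slc25a28, the mitochondrial iron importer mitoferrin 2, was the higher one, at 56.5, 37.0 and 49.2 CPM in Acss2-KO against 18.8, 17.5 and 20.2 CPM in WT (log2 fold change 1.27, SE 0.19, limma adjusted p = 0.0021). The lower ones with the smallest p were Slc39a8, a zinc, manganese and iron importer (-0.97, SE 0.17, adjusted p = 0.0037), Steap4, a metalloreductase (-1.37, SE 0.25, 0.0044), and Slc46a1, a folate and heme carrier (-0.99, SE 0.18, 0.0049). All 4 kept their calls in each of 20 alternatives. In the authors' deposited table Slc25a28 and Steap4 pass 0.05 (adjusted p of 0.00048 and 0.0034). Slc39a8 and Slc46a1 do not pass there (0.065 and 0.056), nor do Hpx and Nfs1, named next (0.15 and 0.33). The remaining pair, named after their values were seen, were the heme-binding plasma protein gene Hpx (-0.84, adjusted p = 0.017) and the iron-sulfur cluster gene Nfs1 (-0.63, 0.012). Hpx lost its call without Acss2-KO replicate 3 (0.091) or WT replicate 2 (0.064), and Nfs1 without the same libraries (0.055 each), with ranges over 20 alternatives of 0.0061 to 0.091 for Hpx and 0.012 to 0.13 for Nfs1, so the lower calls numbered 3 when either library was left out. Higher calls numbered 2 without Acss2-KO replicate 2 or WT replicate 2.

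Several abundant genes of iron transport did not pass, of which Slc39a14 and Ncoa4 were chosen after their values were seen. Ceruloplasmin, the ferroxidase of plasma, averaged 1357 ± 190.5 CPM from Cp in Acss2-KO and 1181 ± 82.9 CPM in WT (SD, n = 3 each; log2 fold change 0.19, limma adjusted p = 0.47). Lrp1, which takes up heme-hemopexin, was at 419, 653 and 512 CPM in Acss2-KO against 1017, 1090 and 355 CPM in WT (-0.50, adjusted p = 0.38), and passed without WT replicate 3 (-1.02, 0.026, in a range of 0.026 to 0.95). Slc39a14, the importer of iron that is not bound to transferrin, was at 861, 217 and 468 CPM in Acss2-KO against 240, 228 and 214 CPM in WT. Its Acss2-KO replicate 2 lay among the WT libraries (0.96, SE 0.44, adjusted p = 0.12), and it passed without that library (1.48, 0.0036, in a range of 0.0036 to 0.33). In the authors' deposited table Slc39a14 does pass, with a log2 fold change of 1.33 and an adjusted p of 0.0018. Cp and Lrp1 do not pass there (0.52 and 0.36). Ncoa4, the receptor that sends ferritin to lysosomes, was at 236, 276 and 234 CPM in Acss2-KO against 170, 185 and 197 CPM in WT (0.43, adjusted p = 0.087), and passed with median-of-ratios (0.039), trimmed-mean (0.038) and quantile scaling (0.028), in a range of 0.028 to 0.28.

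**Figure D5:**
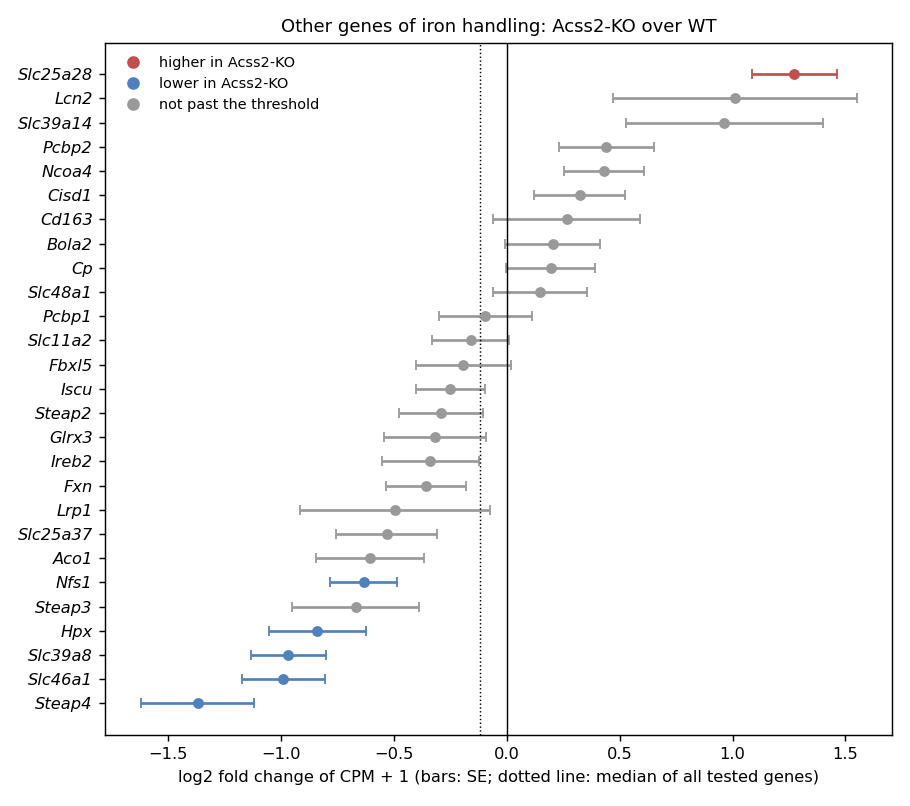
Log2 fold change of CPM + 1, Acss2-KO over WT, with SE bars, for 27 other tested genes of iron handling. Slc25a28 (1.27) is the gene called higher, and the 5 called lower run from Steap4 (-1.37) to Nfs1 (-0.63).

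Among genes of iron-sulfur cluster assembly and iron-using enzymes, 4 of 31 tested were higher, 6 were lower and 21 did not pass (median log2 fold change -0.04), shares near the 13.4% and 23.1% of all tested genes. Ciapin1, a cytosolic iron-sulfur assembly factor, was at 43.1, 36.5 and 40.5 CPM in Acss2-KO against 19.7, 19.7 and 20.8 CPM in WT (0.96, SE 0.15, limma adjusted p = 0.0026). Fdx1, the mitochondrial ferredoxin, was at 26.0, 31.6 and 30.5 CPM in Acss2-KO against 53.1, 50.2 and 64.9 CPM in WT (-0.91, SE 0.17, adjusted p = 0.0051). Both kept their calls in all 20 alternatives. Lower calls in this list numbered 2 without Acss2-KO replicate 3 or WT replicate 1 and 3 without WT replicate 2, and higher calls numbered 2 without Acss2-KO replicate 3.

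Among 134 tested genes of these lists and the marker lists, those with the most similar pattern over the 6 libraries were named by Pearson r of log2(CPM + 1). For the iron genes called, the highest was Slc39a8 for Slc40a1 (r = 0.998), Ciapin1 for Scara5 (0.997) and for Hfe2 (0.962), Tmprss6 for Trf (0.994), Fdx1 for Hfe (0.982) and Mms19, another iron-sulfur assembly gene, for Hamp (0.967). These values describe 6 libraries in 2 genotypes, and most of each r comes from the genotype difference that the paired genes have in common. Once each genotype's mean was removed, r was 0.989 for Slc40a1 with Slc39a8 and 0.873 for Hamp with Mms19, but -0.853 for Hfe2 with Ciapin1. For the iron genes not called, the highest was the Kupffer cell marker Vsig4 for Ftl1 (0.962), Apoa1 for Tfrc (0.958), Abcb8 for Tfr2 (0.904) and Fam96a for Fth1 (0.895). With genotype means removed these were 0.922, 0.915, 0.915 and 0.835. Within its group, Acss2-KO replicate 2 was on the WT side of the group mean for 5 of the 6 iron genes called, the exception being Hfe2.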

How the data were processed

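Liver RNA-seq (total RNA, Illumina TruSeq, per the labels' protocols) was taken as deposited by the authors: log2 CPM to 2 decimals, with values below 1 CPM listed at 0, beside the authors' log2 fold changes and p-values and adjusted p-values. Per the submitters' processing notes, Bowtie 0.12.2 and the build mm8 were named, with no role. The deposited coordinates follow GRCm38. How reads were counted, and whether strand was used, is not stated in any label or header. Library totals were 997061 to 997856 CPM. Depth was estimated from the steps between low values, which gives 109 to 154 reads at 5 CPM. Whole reads could not be recovered, so no count model was run.

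Values were turned back to CPM, with a listed 0 set to 1 CPM. Genes averaging 5 CPM or more were tested with limma 3.58.1 on log2(CPM + 1) (R 4.3.3, robust and trend options), with Benjamini-Hochberg adjustment over all 9355 genes and a threshold of 0.05. The code was tested on simulated data. Tests are two-sided. The 10 genes, the lists and the markers were chosen with earlier results of these data known. From each of the lists of related iron genes and hepcidin control, the named genes were those called with the smallest p and the most abundant ones that did not pass, and for each iron gene the genes with the most similar values. Other genes are named after their values were seen. Hairpins and transcript lengths are from GENCODE M1 and promoters from RefSeq (GRCm38.p6). Alternatives were other pseudocounts, scalings, filters, thresholds, a replicate block and left-out libraries. A gene among those with an iron responsive element is counted but not reported here by name.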

Additional observations from a re-analysis of the deposited data

How the results depend on the processing

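Slc40a1, Trf and Scara5 kept their calls under every alternative in which they were tested, and Hfe2 under all but 1. Hamp and Hfe lost theirs when single libraries were left out. With single libraries left out, the 10 iron genes gave 2 to 4 higher and 2 to 3 lower calls, all tested genes 519 to 1608 higher and 1239 to 2420 lower, related iron genes 1 to 2 higher and 3 to 7 lower, and hepcidin control genes 1 to 10 higher and 3 to 6 lower. The 3 libraries a group and the 1 CPM floor of the deposited values limit what could be called, and for Scara5 the floor bears on the size of the fold change.

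When Acss2-KO replicate 1 and WT replicate 2 were left out together, 1 iron gene was higher (3 with all libraries), 715 of all tested genes were higher and 1319 lower (1252 and 2161), 2 related iron genes were higher and 3 lower (1 and 5), and 3 hepcidin control genes were higher (8). At a minimum of 20 CPM, 741 genes were higher and 1112 lower, and 5 hepcidin control genes were higher. At an adjusted p of 0.01, 505 genes were higher and 991 lower, 3 related iron genes were lower and 1 hepcidin control gene was higher. At an adjusted p of 0.1, 2 related iron genes were higher and 8 lower, and 7 hepcidin control genes were lower. Related iron genes called higher numbered 2 with median-of-ratios scaling, quantile scaling or no filter, and 3 with trimmed-mean scaling. Fewer genes or libraries enter some of these fits, and for the scalings the cause was not tested.

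Higher calls made up 36.7% of all calls as deposited, 51.3% with median-of-ratios, 46.2% with upper-quartile, 52.8% with quantile and 51.5% with trimmed-mean scaling. The sign turned for Fth1 with median-of-ratios and trimmed-mean scaling (0.01 each). With single libraries left out, the log2 fold change of Tfr2 ran from -0.14 to 0.24 and that of Smad6 from -0.15 to 0.19.

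Deviations of same-numbered libraries correlated at -0.102, -0.14 and 0.0899, and those of libraries with different numbers between -0.146 and 0.175. With 3 libraries a group, these values cannot show whether replicate numbers pair the libraries. With a replicate block, 3 iron genes were higher and 3 lower, and 1260 of all tested genes were higher and 2137 lower. Of the genes named, Bmp2 (adjusted p = 0.058) and Inhbb (0.16) lost their calls under the replicate block.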
